A study of Homo sapiens with 12 samples.

Results

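The first 10-fold step of Paclitaxel dose in the series, from 0.0005 to 0.005 μM, was examined in the 4 RNA libraries taken at these doses, 2 at 0.0005 μM and 2 at 0.005 μM, of 12 libraries in all. The 4 libraries were chosen by their dose labels alone. The cells were MDA-MB-231, a human triple negative breast cancer line of 1 origin, labelled as wild type and carrying a green fluorescent protein, and they were grown as a suspension in droplets of Matrigel on glass. Paclitaxel was given on day 2 and RNA was taken on day 4, after the cells had been released from the gel with enzymes. The other 8 libraries came from cells without drug, 2 taken on day 2 (C1) and 2 on day 4 (C2), and from cells at 0.05 and 0.5 μM, 2 libraries each, also on day 4. The replicates are called biological by the study, but all come from the same cell line, so that p-values measure the spread between cultures of that line.

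Paclitaxel binds β-tubulin inside the microtubule and stabilises the polymer, which stalls dividing cells in mitosis at higher doses and alters microtubule dynamics at lower ones. Microtubules also carry vesicles and position adhesions in cells that crawl through matrix. In this line, as in other mesenchymal carcinoma lines, the transcription factors NF-κB and AP-1 keep cytokine, chemokine and matrix protease genes switched on without an outside stimulus.

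The 0.0005 μM libraries held 76146992 and 64592491 counts, the 0.005 μM libraries 78902944 and 76559040, and the 12 libraries together ran from 38380629 to 79169121. The absolute log2 difference between replicates of a gene had a median of 0.13 at 0.0005 μM and 0.06 at 0.005 μM, against 0.41 in C1, where replicates lay farthest apart. The markers fixed for the line were high in all 4 libraries, with VIM at 945 to 1154 CPM (counts scaled to a common library size, here all counts of the library), EGFR at 279 to 341 and CAV1 at 348 to 377. Markers of other cell types were mixed. Near 0 were CDH1 at no more than 0.216 CPM, ESR1 at 0.494, PTPRC at 0.228, COL1A2 at 0.114 and MS4A1 at 0. Not near 0 were the luminal AGR2 (233 to 266 CPM), KRT19 (216 to 274), XBP1 (171.5 to 217), ERBB2 (24.3 to 31.1), SPDEF (10.1 to 12.8), FOXA1 (5.93 to 7.11), EPCAM (4.71 to 5.33), TFF1 (2.44 to 4.83) and GATA3 (1.855 to 2.51), the fibroblast COL1A1 (5.54 to 10.6) and PDGFRB (4.8 to 6.33) and the endothelial ESAM (65.5 to 74.99) and KDR (1.25 to 1.67). Of the 12 fibroblast markers, summed to 13.8 to 18.6 CPM at 0.0005 μM and 18.9 to 20.01 CPM at 0.005 μM, 9 were below 1 CPM in all 4 libraries. The same held for 9 of 12 immune markers (3.58 to 4.03 against 5.16 to 5.45 CPM in sum) and 7 of 9 endothelial markers (69.7 to 78.1 against 69.2 to 69.3 CPM). Of 12 luminal breast markers, summed to 768 to 790.1 against 679 to 701 CPM, 3 were below 1 CPM in all 4 libraries. Their part in the differences below was not tested.

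The question at this step was which genes the first 10-fold increase of dose changed. With all 12 libraries sharing 1 estimate of the spread, 0 of 25249 tested identifiers (0%) were called at an adjusted p under 0.05 by edgeR's quasi-likelihood test, the lowest adjusted p being 0.413. DESeq2 also called 0, with a lowest adjusted p of 0.061. At an unadjusted p under 0.05, 498 identifiers (1.97%) were lower and 2116 (8.38%) were higher at 0.005 than at 0.0005 μM. These 2614 became 758 without replicate 2 at 0.0005 μM, 875 without replicate 1 at 0.005 μM, 4348 without C1 replicate 1 and 4384 without C1 replicate 2, and the list counts below rest on the same fit. Among the 10431 protein-coding genes with a mean of at least 5 CPM over the 4 libraries, the corresponding counts were 295 lower (2.83%) and 231 higher (2.21%). For 1 gene and 2 libraries per dose, the smallest two-sided p that exact permutation allows is 0.333. In bulk RNA, fewer cells expressing a gene and less RNA per cell cannot be told apart.

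The number of calls depended on the libraries that entered the fit. With the 8 treated libraries alone, 16 of 25057 identifiers (0.0639%) were called, all lower at 0.005 μM. This one-sided direction did not hold under other settings of the same fit: DESeq2 called 291 higher and 190 lower, and no filter on low counts gave 1283 higher and 189 lower. With the 4 libraries of the step alone, 2187 of 23957 were called, 590 lower (2.46%) and 1597 higher (6.67%). The biological coefficient of variation was 15.6% over 12 libraries, 10.1% over the 8 treated and 7.49% over the 4. Leaving out C1 replicate 1 from the fit of 12 gave 10 calls and leaving out C1 replicate 2 gave 9, all lower, while leaving out any other library gave 0. In the fit of 8, leaving out replicate 1 at 0.0005 μM or either library at 0.005 μM gave 0 calls in place of 16, and leaving out replicate 2 at 0.0005 μM gave 7. Leaving out replicate 1 at 0.05 μM gave 1009 calls, 750 higher and 259 lower, and replicate 2 of that dose 661, 439 higher and 222 lower. Genes are therefore described below by their values in each library, and "called" names the fit in which the call was made.

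**Figure D1:**
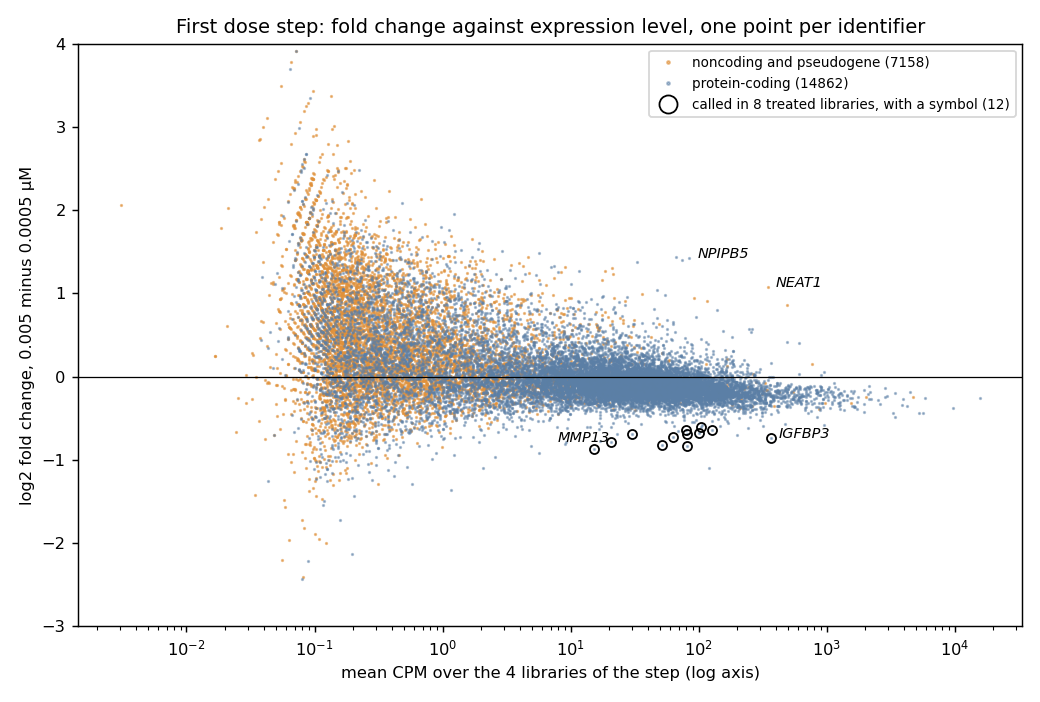
Log2 fold change of 0.005 against 0.0005 μM (vertical axis) against the mean CPM over the 4 libraries (horizontal log axis), 1 point per tested identifier, in orange for noncoding and pseudogene identifiers, in blue for protein-coding ones and ringed for the 12 genes with a symbol called in the fit of the 8 treated libraries. Weakly expressed and noncoding identifiers lie mostly above 0 and abundant coding genes mostly below it, and the 12 ringed genes all lie below -0.6. The axis leaves out 5 points.

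The direction of the step differed by expression level and class of RNA. The median log2 fold change was 0.38 for the 9360 identifiers below 1 CPM, 0.08 from 1 to 5 CPM, -0.04 from 5 to 20, -0.11 from 20 to 100 and -0.19 for the 1977 identifiers at 100 CPM or more. It was 0.33 for 3880 lncRNAs and -0.08 for 14862 protein-coding genes, and -0.11 for the protein-coding genes at 5 CPM or more, of which 50.0% were lower and 13.8% higher without overlap between the groups. Over all tested identifiers these shares were 29.7% and 29.4%. Of these expressed coding genes, 7753 of 10431 (74.3%) were lower, 2.83% were lower at an unadjusted p under 0.05 and 4.41% were called lower in the 4 libraries, and the counts and medians of gene groups below are read against these shares and the -0.11.

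The 16 called identifiers comprised 12 genes with a symbol and 4 identifiers without one. Over the 12 libraries, which share the scale of their depth, the counts of each of these 4 correlated with those of HSPA1B at 0.9996 or more, and they were not counted as separate genes. The 12 genes were IL1B, CXCL2, CXCL3, ICAM1, ISG15, OASL, MMP10, MMP13, LOX, IGFBP3, FOS and HSPA1B. All 12 were also called in the fit of the 4 libraries alone, in which 2.46% of identifiers were called lower. These 4 are among the 8 libraries that picked the genes, so that this is no separate support. Over 12 libraries none was called: the adjusted p was 0.492 for MMP10 and 0.413 for the other 11. For these genes at this step, the log2 changes and standard errors below come from the fit of 12 libraries. Their adjusted p come from the fit of 8, so that the 2 do not belong to 1 test.

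In GENCODE annotation on GRCh37, IL1B is at chr2:113587328-113594393, CXCL3 at chr4:74902306-74904524, CXCL2 at chr4:74962757-74964913 and ICAM1 at chr19:10381769-10397291. MMP10 is at chr11:102641233-102651359 and MMP13 at chr11:102813724-102826461, and HSPA1B at chr6:31795515-31798031. Counts were taken over the exons of each gene. Promoter sequences were available in RefSeq for 10 of the 12 genes, and MMP13 and OASL had none in the table used. Those below are shown because they carry the sequence elements for which these gene families are known. Coordinates are on GRCh38.p14, each sequence reads 5′ to 3′ on the strand of its gene, ends upstream of the start site, and has the matched element in capitals:
CXCL3 (chr4:74038734-74038793, minus strand): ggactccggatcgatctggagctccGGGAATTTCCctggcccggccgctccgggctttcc
CXCL2 (chr4:74099239-74099298, minus strand): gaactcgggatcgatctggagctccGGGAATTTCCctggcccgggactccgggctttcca
ICAM1 (chr19:10270909-10270967, plus strand): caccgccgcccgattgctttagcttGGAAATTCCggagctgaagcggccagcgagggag
ISG15 (chr1:1013359-1013424, plus strand): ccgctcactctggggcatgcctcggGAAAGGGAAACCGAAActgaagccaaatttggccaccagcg
MMP10 (chr11:102780664-102780720, minus strand): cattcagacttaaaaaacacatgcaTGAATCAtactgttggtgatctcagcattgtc
HSPA1B (chr6:31827608-31827665, plus strand): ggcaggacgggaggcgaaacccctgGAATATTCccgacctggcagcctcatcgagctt

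The elements were searched on both strands of the 250 bases upstream of the start site. The capitals in CXCL3 and CXCL2 match both κB spellings used, GGG and TTTCC separated by 2 free bases (in 1.73% of 35116 promoters) and GGAANTTCC (0.826%), which overlap there, and ICAM1 matches the second. ISG15 carries 2 overlapping matches to the interferon-stimulated response element, spelled as 2 copies of GAAA separated by 2 free bases (3.02% of promoters). MMP10 matches the AP-1 element TGANTCA (6.57%), and HSPA1B the heat shock element GAANNTTC (5.78%), which IL1B and MMP10 also match. IL1B matched neither κB spelling, and FOS, IGFBP3 and LOX matched none of the 5 spellings in this window. The matches describe the letters only, and binding was not measured.

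**Figure D2:**
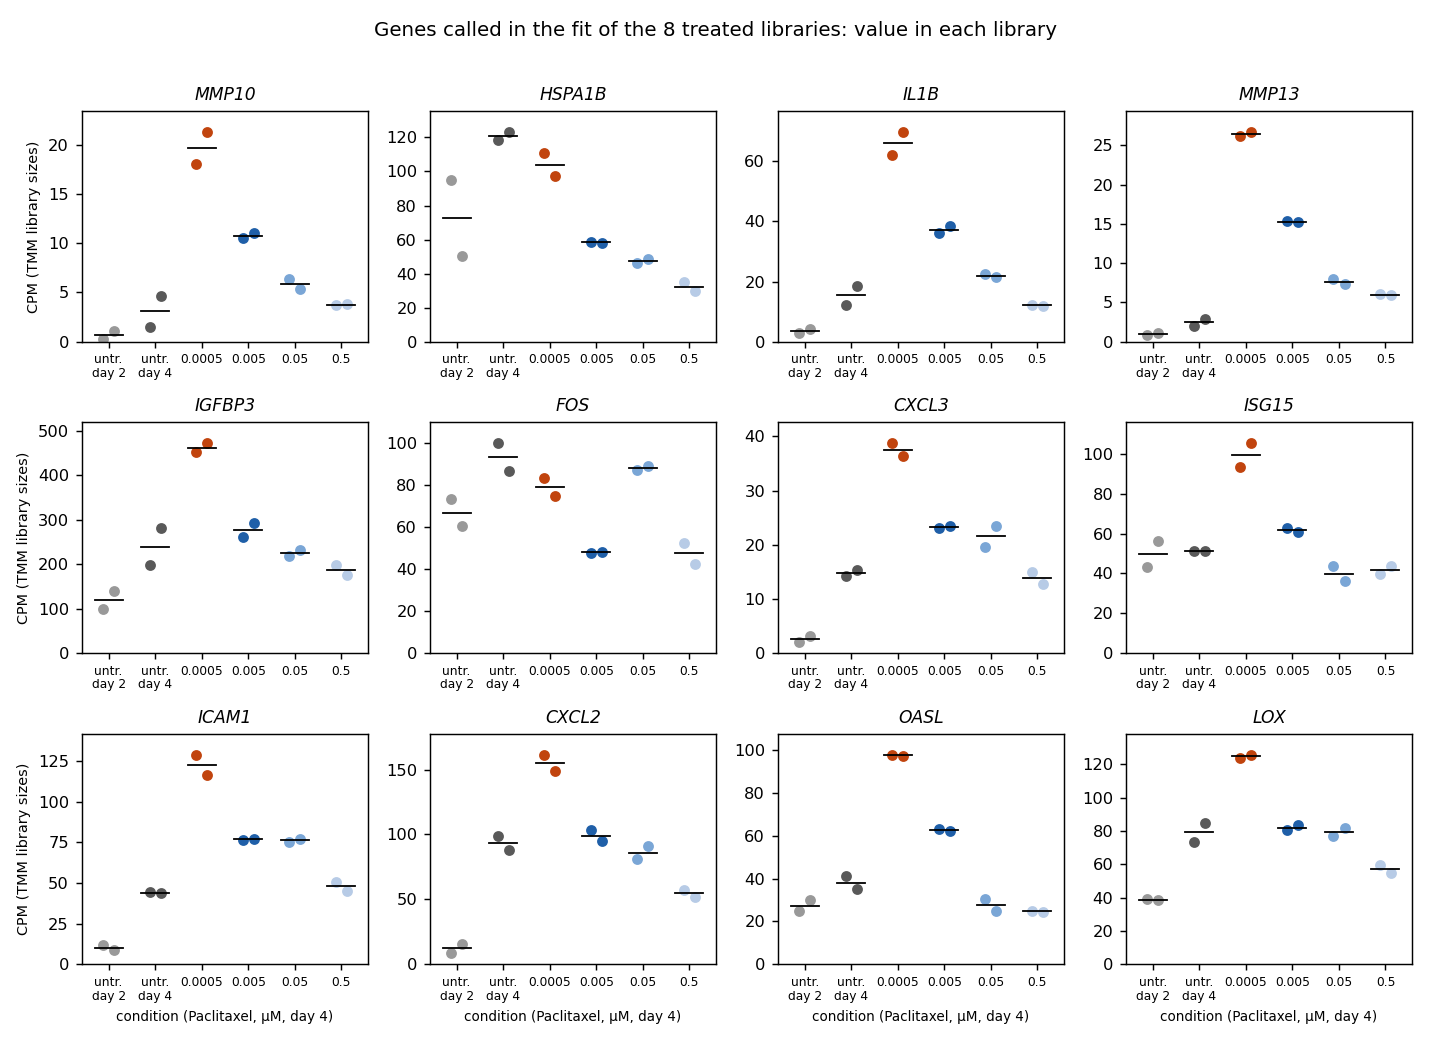
CPM on TMM library sizes (vertical axes from 0) of the 12 genes called in the fit of the 8 treated libraries, in each of the 12 libraries (points) with the mean of each condition (bars), for untreated cells on days 2 and 4 and for 4 Paclitaxel doses in μM. In all 12 genes both 0.0005 μM points lie above both 0.005 μM points, which the choice of the genes by this step favours.

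Cytokine and NF-κB target genes gave 4 of the 12 calls. IL1B, which encodes the inflammatory cytokine interleukin-1β, stood at 62.2 and 69.8 CPM at 0.0005 μM and at 36.1 and 38.4 CPM at 0.005 μM. The 2 pairs did not overlap, the lower dose lying 1.77-fold above the higher (log2 fold change -0.82 ± 0.20 SE, n = 2 per group, adjusted p = 0.00510 by edgeR in the 8 treated libraries). In C2 it stood at 12.3 and 18.5 CPM, and at the next doses it went on downwards, to 22.5 and 21.4 and then 12.2 and 11.9 CPM. Both untreated values thus lay below all 4 values of the step.

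The chemokines CXCL2 and CXCL3, which attract neutrophils and whose promoters share the κB element shown above, differed to a similar extent. CXCL2 stood at 162 and 149 CPM against 103 and 95.0 CPM (-0.65 ± 0.22, adjusted p = 0.0499 in the 8 libraries). CXCL3 stood at 38.7 and 36.4 CPM against 23.1 and 23.5 CPM (-0.69 ± 0.18, adjusted p = 0.0439). Neither pair overlapped with the other. ICAM1, an adhesion receptor for leukocytes and a classical NF-κB target, was at 129 and 116 CPM against 76.5 and 77.3 CPM (-0.68 ± 0.15, adjusted p = 0.0315). Its levels at 0.005 and 0.05 μM, 75.5 and 77.4 CPM at the latter, lay within 2 CPM of each other, and C2 lay at 44.3 and 43.9 CPM.

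Of 37 listed cytokine and NF-κB genes 36 were matched and 35 tested, 33 of them lower at 0.005 μM (94.3%, against 74.3% of expressed coding genes), with a median log2 fold change of -0.33. At an unadjusted p under 0.05, 13 were lower (37.1%, against 2.83%) and 0 higher, 4 were called in the 8 libraries (the 4 above) and 15, all lower, in the 4 libraries alone (42.9%, against 4.41%). IL6, a cytokine that signals through STAT3, was at 33.5 CPM in both 0.0005 μM libraries and at 24.5 and 21.1 CPM at 0.005 μM. PTGS2, the inducible cyclooxygenase, was at 289 and 281 against 219 and 222 CPM, and CSF3, the granulocyte growth factor, at 4.96 and 4.73 against 3.44 and 3.38 CPM. The feedback inhibitors NFKBIA (499 and 439 against 355 and 353 CPM) and TNFAIP3 (160 and 131 against 117 and 113 CPM) were lower as well. The most abundant member, CXCL8, was at 2375 and 2136 against 1648 and 1722 CPM, but with a standard error of 0.43 on a log2 fold change of -0.42 its difference had an unadjusted p of 0.35.

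Interferon-stimulated genes, which encode antiviral proteins, formed a second group. ISG15, a ubiquitin-like modifier, was at 93.4 and 105 CPM at 0.0005 μM and at 62.6 and 60.8 CPM at 0.005 μM (-0.69 ± 0.16, adjusted p = 0.0439 in the 8 libraries). C2 lay at 51.1 CPM in both libraries, so that the 0.005 μM values were closer to the untreated than to the lower dose. OASL, a relative of the oligoadenylate synthetases, was at 97.8 and 97.2 against 63.0 and 62.2 CPM (-0.64 ± 0.15, adjusted p = 0.0439), with C2 at 41.3 and 35.0 and the 2 higher doses between 24.5 and 30.3 CPM.

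Of 49 listed interferon-stimulated genes 48 were tested, 44 of them lower (91.7%, against 74.3% of expressed coding genes; median -0.28), with 15 lower (31.25%, against 2.83%) and 1 higher at an unadjusted p under 0.05 and 16 lower and 2 higher in the fit of the 4 libraries. IFIT2 was at 234 and 250 against 173 and 169 CPM, IFIT3 at 195 and 210 against 140 and 135 CPM, and IFITM3, which blocks virus entry at membranes, at 168 and 176.5 against 126 and 127 CPM. In these 3 genes too the groups did not overlap. Of the 4 members higher at 0.005 μM, the one with an unadjusted p under 0.05 was IRF9, the DNA-binding subunit of the interferon-activated complex ISGF3, at 2.37 and 1.73 against 3.21 and 3.54 CPM. STAT2, which belongs to the same complex, was higher by 0.38 on the log2 scale without overlap (unadjusted p = 0.051, adjusted p = 0.0366 in the 4 libraries alone).

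Among matrix proteases, MMP13 and MMP10 gave 2 of the 12 calls. MMP13 (collagenase 3) was at 26.2 and 26.7 CPM at 0.0005 μM and at 15.4 and 15.2 CPM at 0.005 μM (-0.79 ± 0.17, adjusted p = 0.00510 in the 8 libraries), against 2.05 and 2.87 CPM in C2. MMP10 (stromelysin 2) was at 18.0 and 21.3 against 10.5 and 11.01 CPM (-0.87 ± 0.41 in the fit of 12, adjusted p = 0.0121 in the fit of 8), against 1.47 and 4.67 CPM in C2. MMP1 (interstitial collagenase) was at 285 and 305 against 183 and 202 CPM, with 22.7 and 40.6 CPM in C2, and MMP3 (stromelysin 1) at 15.7 and 18.7 against 11.8 and 10.8 CPM, with 0.753 and 1.14 CPM in C2. All 4 belong to the cluster of protease genes on chromosome 11. MMP1 and MMP3 were not called in the 8 libraries (adjusted p of 0.0743 and 0.0799). PLAU, the secreted protease urokinase, was at 364 and 313 against 282 and 291 CPM (unadjusted p = 0.30), with 363 and 300.2 CPM in C2. Of the 44 listed matrix and protease genes, 20 stood higher at 0.005 μM than in C2, beside 3083 of 10431 expressed coding genes and 13432 of all 25249 identifiers.

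LOX, the copper enzyme that crosslinks collagen and elastin, was at 124 and 126 against 80.3 and 83.9 CPM (-0.60 ± 0.13, adjusted p = 0.0439), the latter level with C2 at 73.7 and 84.9 CPM. Of the plasminogen system, PLAT, the tissue activator, was at 177 and 218 against 140 and 133 CPM, and the urokinase receptor PLAUR at 125 and 136 against 96.6 and 97.7 CPM. Over the list of 44 matrix and protease genes, all tested, 34 were lower (77.3%, against 74.3% of expressed coding genes; median -0.29), with 12 lower (27.3%, against 2.83%) and 1 higher at an unadjusted p under 0.05. The 1 higher was COL7A1, which encodes anchoring-fibril collagen, at 9.66 and 5.95 against 13.8 and 12.7 CPM. IGFBP3, a secreted carrier of insulin-like growth factors that stood on no list, was at 452 and 472 against 260 and 293 CPM (-0.74 ± 0.20, adjusted p = 0.0439).

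**Figure D3:**
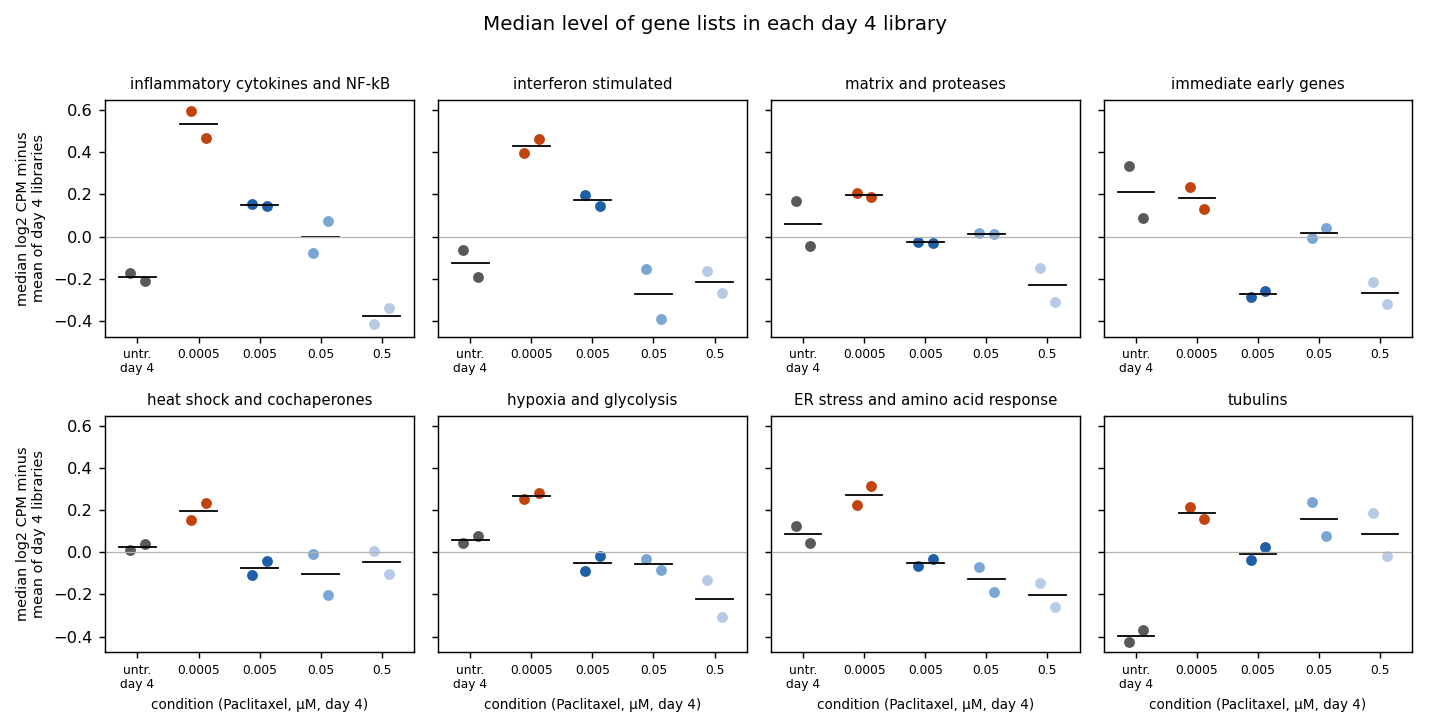
For 8 gene lists, the median over tested members of log2 CPM minus the mean of the same gene in the 10 day 4 libraries (vertical axis), for each library (points) and the mean of each condition (bars). In every list but the tubulins the 2 libraries at 0.0005 μM lie above the 2 at 0.005 μM by more than 0.19, and in the cytokine list they lie at 0.596 and 0.468 against 0.154 and 0.145.

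Immediate early genes, transcription factors and regulators induced within minutes of a stimulus, had the lowest median of all lists. Of 28 listed genes 27 were tested and 26 were lower (96.3%, against 74.3% of expressed coding genes; median -0.40), with 10 lower (37.04%, against 2.83%) and 0 higher at an unadjusted p under 0.05 and 15 lower in the 4 libraries alone. FOS, a subunit of AP-1, was at 83.3 and 74.6 CPM at 0.0005 μM and at 47.7 and 48.0 CPM at 0.005 μM (-0.72 ± 0.15, adjusted p = 0.0315 in the 8 libraries). It did not continue downwards: 0.05 μM gave 87.2 and 89.0 CPM and 0.5 μM gave 52.4 and 42.5 CPM. FOSB was at 200 and 131 against 79.2 and 75.4 CPM, a difference of -1.099 ± 0.35, with 549 and 350 CPM in C2, and ATF3, a stress-induced repressor, at 274 and 221 against 145 and 160 CPM, with 455 and 312 CPM in C2. JUN (268 and 247 against 184 and 196 CPM) and JUNB (311 and 280 against 212 and 211 CPM), partners of FOS in AP-1, were lower too. EGR1, a zinc finger factor downstream of ERK, was at 242 and 226 against 195 and 203 CPM, without overlap but with an unadjusted p of 0.36.

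Among chaperones, 1 gene was called. HSPA1B, the inducible HSP70, was at 111 and 97.2 CPM against 58.6 and 58.2 CPM (-0.83 ± 0.23, adjusted p = 0.00510), with 118 and 123 CPM in C2, 46.3 and 48.9 CPM at 0.05 μM and 34.8 and 29.9 CPM at 0.5 μM. Its near-identical neighbour HSPA1A was counted at 6.21 and 6.31 against 3.43 and 3.57 CPM, and reads of the 2 genes may have been split unevenly. HSPA6, which is made only on stress, was at 8.49 and 6.46 against 3.74 and 4.17 CPM, and DNAJB1, the HSP40 partner, at 370 and 342 against 240 and 254 CPM. The constitutive HSPA8 (2899.8 and 3279 against 2512 and 2724 CPM) and the abundant HSP90AA1 (2433 and 2437 against 1924.5 and 2103 CPM) had unadjusted p of 0.28 and 0.27, while the constitutive HSP90AB1 (1399 and 1689 against 1148 and 1182 CPM) had one of 0.037. Of the 26 listed genes, all tested, 25 were lower (96.2%, against 74.3% of expressed coding genes), with a median of -0.27 and 6 at an unadjusted p under 0.05 (23.1%, against 2.83%). Other lists were about as one-sided. Lower were 76 of 77 cytosolic ribosomal protein genes (2 at that p), 30 of 32 cholesterol and fatty acid synthesis genes (3) and all 13 mitochondrially encoded genes (0). Of the 1977 identifiers at 100 CPM or more, 1795 were lower.

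All 40 tested genes of the endoplasmic reticulum stress and amino acid response list, of 42 listed, were lower (against 74.3% of expressed coding genes; median -0.34), 20 at an unadjusted p under 0.05 (against 2.83%) and none called in the 8 libraries. The fold changes lay in a narrow band, with quartiles of -0.39 and -0.27. XBP1, a transcription factor of the unfolded protein response, was at 192 and 238 against 160 and 164 CPM. HERPUD1, which takes part in degradation at the endoplasmic reticulum, was at 136 and 158 against 109 and 110 CPM, the folding enzyme PDIA3 at 359 and 394 against 274 and 285 CPM, and TRIB3, a pseudokinase induced by ATF4, at 31.9 and 32.6 against 22.7 and 25.1 CPM. HSPA5 (BiP), the main chaperone of the compartment, was at 924 and 1105 against 744 and 794 CPM (unadjusted p = 0.046).

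Hypoxia and glycolysis genes were also mostly lower, 37 of 38 being lower (97.4%, against 74.3% of expressed coding genes; median -0.33) and 12 at an unadjusted p under 0.05 (31.6%, against 2.83%). CA9, a carbonic anhydrase at the cell surface, was at 11.4 CPM in both 0.0005 μM libraries and at 6.64 and 8.296 CPM at 0.005 μM. NDRG1 was at 1143 and 1124.5 against 696 and 823 CPM, and the glucose transporter SLC2A3 at 95.5 and 124 against 73.1 and 76.8 CPM. The hormone gene STC2, also listed, differed by -0.01 on the log2 scale (unadjusted p = 0.96). LOX is also on this list, and ATF3 is on 2 lists. Neither of 2 abundant glycolytic enzymes had an unadjusted p under 0.05. GAPDH was at 3158 and 4764 against 2794 and 2877 CPM, and PKM, where the groups overlapped, at 3544 and 2860.3 against 2548 and 2901.5 CPM. Of 30 p53 target genes 26 were lower (86.7%, against 74.3% of expressed coding genes), with a median of -0.15 close to their -0.11, and 6 at an unadjusted p under 0.05 (against 2.83%), among them CDKN1A, the cell cycle inhibitor p21 (103 and 107 against 71.6 and 72.0 CPM), and GDF15 (88.8 and 81.2 against 54.6 and 53.1 CPM). MDM2, a direct p53 target, was at 41.0 and 41.6 against 41.0 and 37.6 CPM. The line carries mutant p53, so that the list names a set of genes and not an activity.

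**Figure D4:**
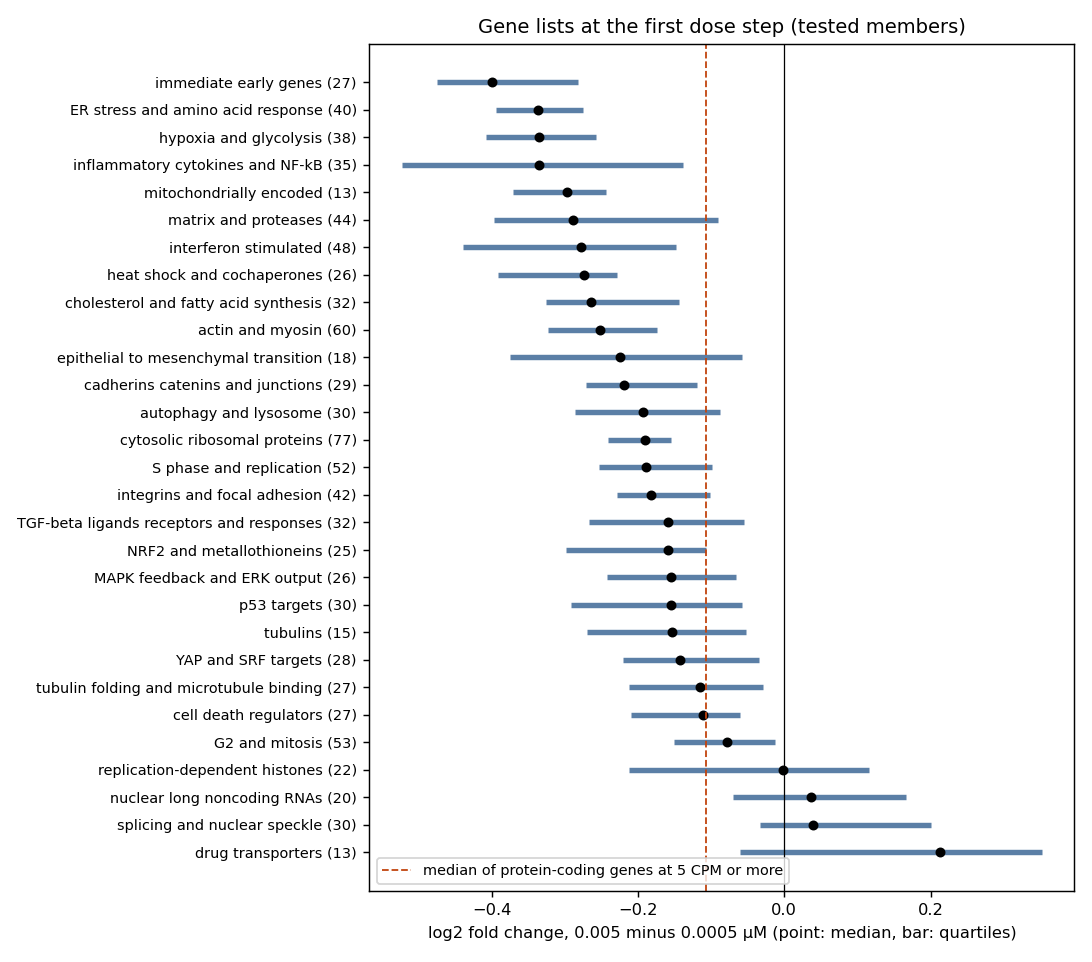
Median (point) and quartiles (bar) of the log2 fold change of 0.005 against 0.0005 μM over the tested members of 29 gene lists, ordered by median, with the number of members in brackets. The dashed line is the median of protein-coding genes at 5 CPM or more, -0.11. Immediate early genes stand lowest at -0.40 and drug transporters highest at 0.21.

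Tubulins, the target of the drug, gave no call at this step. Of 15 tubulin genes 14 were lower (93.3%, against 74.3% of expressed coding genes), with a median of -0.15 beside -0.11 for expressed coding genes, and none had an unadjusted p under 0.05. TUBB was at 1195 and 1613 against 1153 and 1126 CPM, and TUBA1A at 697 and 804 against 688 and 686 CPM, with 329 and 321 CPM in C2. TUBA1A and TUBB2A were among the tubulins called higher at the upper doses than in C2 (0.94 and 1.12, adjusted p = 0.00217 and 0.00265), a contrast of other libraries whose spread was estimated over all 12, but TUBB2A has a near-identical neighbour, TUBB2B, with which reads may be shared. The 53 genes of G2 phase and mitosis had a median of -0.08, with 1 lower and 0 higher at an unadjusted p under 0.05. CCNB1, the mitotic cyclin, was at 150.5 and 191 against 156 and 172 CPM, and MKI67, a proliferation marker, at 128 and 161 against 133 and 128 CPM. The groups overlapped in CCNB1 and in MKI67. The 52 S phase genes had a median of -0.19, 2 of them lower at an unadjusted p under 0.05.

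Genes of the cytoskeleton, adhesion and signalling gave no call in the fit of 8 libraries. Of 60 actin and myosin genes 54 were lower (against 74.3% of expressed coding genes; median -0.25), 6 of them (against 2.83%) and 1 higher gene at an unadjusted p under 0.05. RHOB, a stress-responsive GTPase, was at 179 and 156 against 115 and 120 CPM, CFL1, the actin-severing cofilin, at 568 and 593 against 443 and 455 CPM, and ACTB at 1811 and 1714 against 1333.5 and 1427 CPM, the latter with an unadjusted p of 0.30. The higher gene was TPM2, a tropomyosin, at 19.3 and 13.8 against 27.1 and 24.6 CPM. Of 42 integrin and focal adhesion genes 40 were lower (95.2%, against 74.3%; median -0.18, against -0.11), 0 at an unadjusted p under 0.05 and 1 called in the 4 libraries. ITGB1, the common β1 chain, was at 1562 and 1755 against 1377 and 1404 CPM. The 32 genes of TGF-β ligands, receptors and responses had a median of -0.16 and the 26 of MAPK feedback and ERK output -0.15. Of these, 25 (78.1%) and 21 (80.8%) were lower, near the 74.3% of expressed coding genes. In each list 2 were lower at an unadjusted p under 0.05 (6.25% and 7.69%, against 2.83%). In the 4 libraries alone 6 (18.75%) and 5 (19.2%) were called lower, against 4.41%. TGFB1 was at 50.2 and 44.1 against 36.1 and 37.6 CPM (unadjusted p = 0.29). Of 25 matched genes of epithelial to mesenchymal transition 18 were expressed enough to be tested, 15 of them lower (83.3%, against 74.3%; median -0.22), 3 at an unadjusted p under 0.05. These 3 were epithelial genes, the keratins KRT18 (163 and 188 against 128 and 136 CPM) and KRT19 (277 and 255 against 201 and 215 CPM) and the splicing factor ESRP1, which was below 1 CPM in all 4 libraries. SNAI1, which encodes the repressor Snail, was at 9.49 and 9.32 against 6.75 and 7.27 CPM, not passing an unadjusted p of 0.05.

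**Figure D5:**
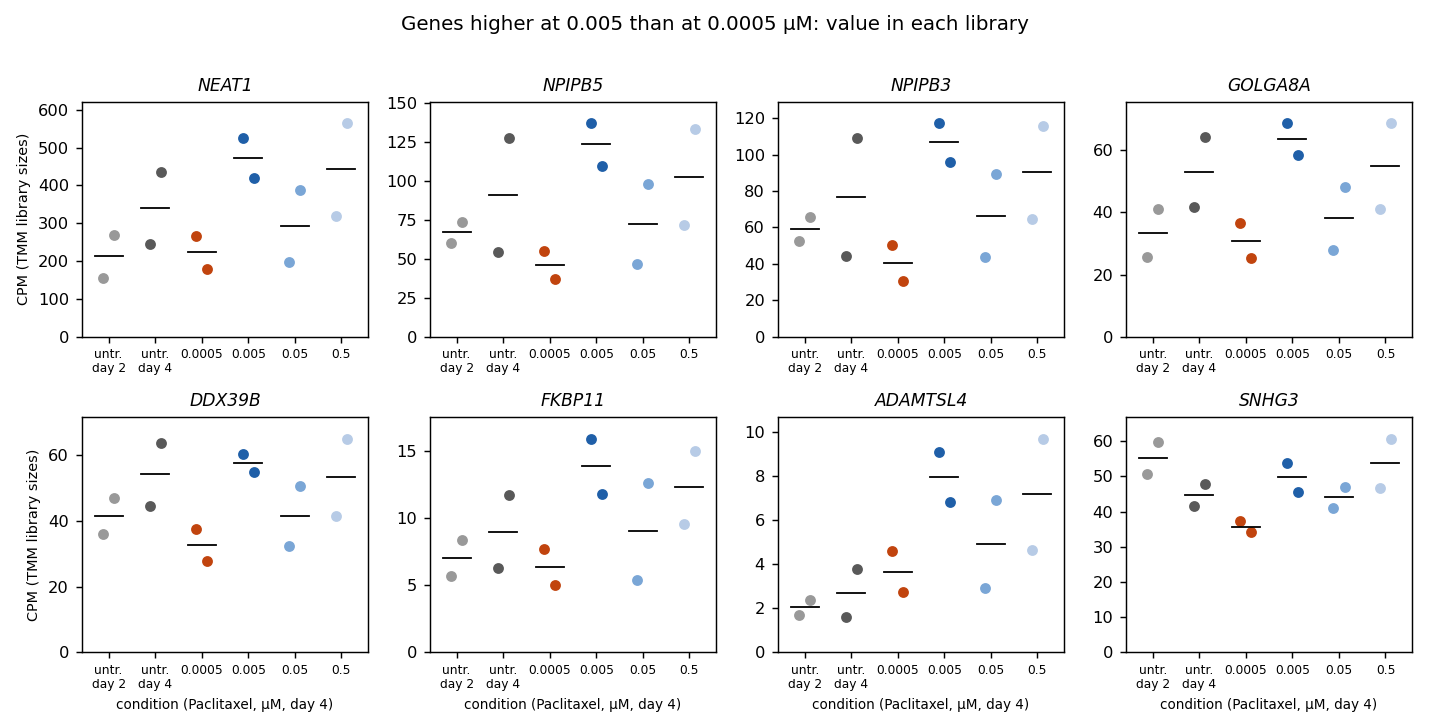
CPM on TMM library sizes (vertical axes from 0) of 8 genes higher at 0.005 than at 0.0005 μM, in each of the 12 libraries (points) with the mean of each condition (bars). Both 0.005 μM points lie above both 0.0005 μM points in all 8, which the choice of the genes by this step favours. In C2, at 0.05 μM and at 0.5 μM the 2 replicates of most genes are far apart, as for NEAT1 at 198 and 389 CPM at 0.05 μM.

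Among coding genes at 5 CPM or more with an unadjusted p under 0.05 and no overlap, the 12 with the largest positive log2 fold changes included 6 members of the NPIPB family (NPIPB3, NPIPB4, NPIPB5, NPIPB11, NPIPB12 and NPIPB13), which are recent segmental duplications on chromosome 16, and SPDYE2 with its copy SPDYE2B. NPIPB5 was at 54.7 and 37.001 CPM at 0.0005 μM and at 137 and 110 CPM at 0.005 μM (1.43 ± 0.42, unadjusted p = 0.0056, adjusted p = 0.413 over 12 libraries). Reads of near-identical copies may be assigned to the wrong one, which was not tested here, so that the 6 may not be independent measurements. GOLGA8A, another duplicated gene, was at 36.7 and 25.3 against 68.8 and 58.4 CPM, and FKBP11, a prolyl isomerase of the secretory pathway, at 7.71 and 5.03 against 15.9 and 11.8 CPM. None of the 12 was called in the 8 libraries, where their adjusted p ran from 0.215 to 0.370. In the 4 libraries alone all 12 were called, against 336 of 10431 expressed coding genes called higher. Their choice by values in these same libraries favours this.

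Among noncoding RNAs, NEAT1, the scaffold of paraspeckles in the nucleus, was at 266 and 180 against 526 and 420 CPM (1.08 ± 0.39, unadjusted p = 0.018). The same gene was at 246 and 435 CPM in the 2 C2 libraries and at 320 and 565 CPM at 0.5 μM, so that replicates of 1 condition differed nearly as much as the doses. MALAT1, another abundant nuclear RNA, was at 629 and 821 against 867 and 743 CPM, where the groups overlapped. Of 30 splicing and nuclear speckle genes 18 (60%) were higher (against 25.7% of expressed coding genes and 48.6% of all identifiers; median 0.04), 3 at an unadjusted p under 0.05 (against 2.21% and 8.38%), among them DDX39B, an RNA helicase of splicing and export, at 37.4 and 27.9 against 60.3 and 54.7 CPM, and HNRNPH1 at 503 and 540 against 732 and 653 CPM. Of 13 tested drug transporters 9 were higher (69.2%, against 48.6% of all identifiers and 25.7% of expressed coding genes; median 0.21), 2 at an unadjusted p under 0.05. The efflux pump ABCC2 was at 4.57 and 3.98 against 6.04 and 6.76 CPM and ABCC3 at 43.6 and 33.7 against 56.3 and 48.4 CPM, while ABCC4 was at 45.9 and 50.4 against 43.4 and 42.7 CPM. The 22 tested replication-dependent histones split into 11 lower and 11 higher (median 0.00), with 3 higher at an unadjusted p under 0.05 (13.6%, against 8.38% of all identifiers and 2.21% of expressed coding genes). Of these, the linker histone H1-2, was at 60.7 and 78.5 against 86.1 and 100.3 CPM, with 23.2 and 24.7 CPM in C2 and 134 to 202 CPM at the 2 higher doses.

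The share of noncoding RNA moved with these genes. Noncoding identifiers took 0.906% and 0.843% of the counts at 0.0005 μM and 1.20% and 1.08% at 0.005 μM, against 0.829% and 0.971% in C2, 0.952% and 1.103% at 0.05 μM and 0.980% and 1.23% at 0.5 μM. More identifiers had at least 1 count at 0.005 μM, 39480 and 38922 against 36776 and 34591, and at the depth of the smallest library the expected numbers were 36092 and 35567 against 33527 and 32205. Exon length moved with the step too: of 5 classes of expressed coding genes by exon length, the shortest had a median of -0.18 and the longest -0.04. The part of these library properties in the differences above was not tested gene by gene. With the ratio of noncoding to coding counts as a covariate in the fit of 12 libraries, the identifiers at an unadjusted p under 0.05 numbered 693 instead of 2614, and 0 were called in either fit.

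Libraries outside the step were used to see whether its genes also differed there. From 0.05 to 0.5 μM, a contrast of other libraries whose values come from the same fit of 12, 11 of the 12 called genes were again lower, IL1B by -0.86, ICAM1 by -0.67 and FOS by -0.89 on the log2 scale. The exception was ISG15 at 0.06. Not all groups were lower again: the interferon list had 14 of 48 members lower there (median 0.06) and the heat shock list 10 of 26 (median 0.05), against 27 of 27 immediate early genes (median -0.37) and 31 of 35 cytokine and NF-κB genes (median -0.37). Between these steps, from 0.005 to 0.05 μM, the medians were 0.32 for immediate early genes and -0.17 for cytokine and NF-κB genes. For the interferon and heat shock lists they were -0.47 and -0.06. The immediate early list thus fell again only after a rise. Of the 295 coding genes lower at an unadjusted p under 0.05 in the first step, 197 were lower in the last (66.8%, against 45.9% of all expressed coding genes), and of the 231 higher ones 207 were higher (89.6%, against 54.2%). The test of the first step against the last called 0 of 25249 identifiers (0%), with 683 at an unadjusted p under 0.05 and 0 called by DESeq2. ISG15 had an unadjusted p of 0.0057 in that test, and an adjusted p of 0.92.

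Against C2, the mean of 0.05 and 0.5 μM differed in 2939 identifiers, 1275 lower (5.05%) and 1664 higher (6.59%). Among the 12 genes, HSPA1B (-1.62 ± 0.19, adjusted p = 0.000491), FOS (-0.53 ± 0.13, adjusted p = 0.0231) and OASL (-0.55 ± 0.13, adjusted p = 0.0172) were lower and MMP13 (1.46 ± 0.17, adjusted p = 0.000406) and ICAM1 (0.46 ± 0.13, adjusted p = 0.0441) higher. IL1B (0.08), CXCL2 (-0.44), CXCL3 (0.23), ISG15 (-0.33), LOX (-0.23), IGFBP3 (-0.22) and MMP10 (0.62) were not called there. Of the 12 genes 5 were thus called in this contrast, 5 also by DESeq2, and 3 with the ratio of noncoding to coding counts as a covariate. The 2939 became 354 without C2 replicate 1, 1247 without C2 replicate 2, 1665 without replicate 2 at 0.05 μM, 1430 without replicate 2 at 0.5 μM, 6165 without C1 replicate 1 and 6188 without C1 replicate 2.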

How the data were processed

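RNA was sequenced as paired reads in 12 samples. Per the labels and the study's methods, the authors trimmed reads with Trimmomatic 0.39 and, by the submitters' processing notes, aligned them to GRCh37 with STAR 2.7.5, kept uniquely aligned reads, counted them with Rsubread and deposited raw counts per gene over exons, neither normalized nor pooled; the strand setting of the counting is not given in the sources used here. The 12 single tables were identical to the series table. Of 63568 identifiers 55665 had a symbol. Counts were fitted with edgeR 4.0.16 in R 4.3.3 (TMM, filterByExpr over the 6 groups, robust quasi-likelihood, 12 samples in 1 fit, two-sided, Benjamini-Hochberg), and DESeq2 1.42.0 was an alternative. A call is an adjusted p under 0.05. CPM use TMM library sizes unless stated, and standard errors come from the fit of 12, by dividing each log2 change by the root of its F statistic. Positions came from GENCODE release 44 lifted to GRCh37. Each group had 2 samples.

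Samples, comparisons, 34 gene lists and the rules were chosen with earlier results of these data known. The naming rule (the 12 largest called changes in each direction at a mean of at least 5 CPM without overlap, in each list the called members and the 3 most abundant, the cell type markers, and genes the study's text names) named no gene by its first clause, so that the genes called in the 8 treated libraries, the 12 largest differences at an unadjusted p under 0.05 and single list members were named after their values were seen. Older list symbols were matched through RefSeq synonyms. The procedure was tested on simulated counts. Values of some list members are not reported here.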

Additional observations from a re-analysis of the deposited data

How the results depend on the processing

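For the first step, RLE scaling, a mean count of at least 10, a mean of 1 CPM, identifiers with a symbol only, no robust estimation and DESeq2 all gave 0 calls, as did, chosen after seeing the data, protein-coding genes at 5 CPM or more alone and the noncoding ratio as a covariate. No filter gave 653, the 8 treated samples 16, the 4 samples alone 2187, and 10 samples without C1 6. Leaving out 1 library gave 0 to 10. Whether replicate numbers pair the samples could not be told, since deviations of same-numbered samples correlated between -0.58 and 0.68, without a common sign. The replicate block gave 0 calls over 12 libraries and 3871 in the 4 samples alone. Between the first and the last step, 0 calls became 1 with no filter. Upper doses against C2 gave 2939, 1634 at a mean of 1 CPM, 6139 without C1, and 354 to 6188 with 1 library left out.

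The 16 calls of the 8 treated samples (alternatives chosen after seeing the data) were all lower, and became 481 by DESeq2 (291 higher), 42 with RLE scaling (9 higher), 1472 with no filter (1283 higher), 8 at a mean of 1 CPM, 10 without robust estimation, 9 with the replicate block, 10 among coding genes at 5 CPM or more (1 higher), and 0 to 1009 with 1 library left out. Of 131 genes, 3 changed sign in the first step under 1 of 22 alternatives or more. CCNB1 was at 0.0039 at a mean of 1 CPM and ran from -0.22 to 0.14 with 1 library left out, MKI67 from -0.31 to 0.037 and MALAT1 from -0.0312 to 0.37.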
